A study of Mus musculus with 9 samples.

Results

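The cell cycle and DNA replication genes described here are a named list of 40 genes, taken by symbol, with no measured value in the rule. A gene was represented by every probe set, the unit of measurement on the array, that the annotation of the platform assigned to that symbol alone. Such probe sets were found for 39 of the 40 genes, 100 probe sets in all, among 45037 probe sets and 18193 genes tested. Ccnb1, the cyclin B1 gene, had none in the annotation used here and was not analysed here. Where 1 value per gene was needed, its most variable probe set across the 9 arrays was taken, a choice made without the groups.

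The arrays compared mouse sclerotome cells, the somite mesenchyme that forms vertebrae and intervertebral discs, taken from below the neural tube of E11.5 embryos after removal of the notochord and grown as dense micromass cultures. Cultures received BMP4 (50 ng/ml), TGF-β1 (5 ng/ml) or neither for 8 hours, with 3 arrays in each group. No transgene or mutant allele was given for any group, and every array was made from 50 ng of total RNA, which was then amplified. The records disagree on whether treatment followed a night in culture or began soon after the cells attached. Values are log2 signals from which the authors had subtracted each probe set's own median over the 9 arrays, so 0 is that median, differences between arrays are kept and levels are not. Neither the level of a gene nor the presence of a marker in these cells could therefore be judged.

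As background, a dividing cell passes through G1, when it commits to division, S phase, when it copies its DNA, and G2 and M, when it prepares for and carries out mitosis. D-type and E-type cyclins bind cyclin-dependent kinases (CDKs) that inactivate the retinoblastoma protein and release E2F transcription factors, which drive genes of DNA replication. Genes of mitosis are switched on later, largely through MuvB complexes with B-Myb and FoxM1. TGF-β is known for arresting many epithelial cells in G1 by raising CDK inhibitors and lowering Myc, whereas mesenchymal cells often respond differently, and BMPs can favour or restrain division depending on the cell.

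Differences in the set after 8 hours were small, but no smaller than those of all genes. The median absolute log2 difference over the 39 genes was 0.15 for BMP4 and 0.16 for TGF-β1 against untreated cultures, beside 0.12 and 0.14 over all genes. For TGF-β1 against BMP4 cultures it was 0.16, beside 0.14. A gene was called changed when its adjusted p in limma's moderated test, with Benjamini-Hochberg adjustment over the 45037 probe sets, was under 0.05. In BMP4 against untreated cultures 3 of 39 genes were called, 1 higher and 2 lower, beside 7.96% of all genes (3.45% higher, 4.51% lower). In TGF-β1 against untreated cultures 3 of 39 were called, all lower, beside 6.75% of all genes (2.54% higher, 4.21% lower). In TGF-β1 against BMP4 cultures 3 of 39 were called, 1 higher and 2 lower, beside 10.1% of all genes (4.73% higher, 5.38% lower). The shares called were thus near the background in each comparison. With a change of at least 2-fold, 0 of the 39 genes were called, beside 311, 162 and 375 of all 18193 genes in the same order. At an unadjusted p under 0.05, limma gave 10, 9 and 10 genes in the same order of comparisons, beside 21.4%, 24.1% and 25.4% of all genes. Counted by arrays alone, 5 genes lay wholly above and 5 wholly below the untreated arrays with BMP4 (10.9% and 12.2% of all genes), and 1 and 8 with TGF-β1 (10.7% and 15.1%). Against BMP4 arrays, TGF-β1 arrays lay wholly above for 3 genes and wholly below for 14 (13.5% and 16.5%).

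The number of arrays limits the precision, but the intervals bound most of these differences. The 95% interval of the difference lay within 2-fold in both directions for 38 of 39 genes with BMP4, for 39 of 39 with TGF-β1 and for 38 of 39 in TGF-β1 against BMP4. For all genes these shares were 94.7%, 95.8% and 94.3%. The exceptions among the cell cycle genes were Ccne2 with BMP4 and E2f2 in TGF-β1 against BMP4. The median log2 difference over the 39 genes was 0.01 for BMP4 minus untreated, -0.04 for TGF-β1 minus untreated and -0.12 for TGF-β1 minus BMP4, whereas the medians over all genes were 0.00, 0.01 and 0.01. The first of these is not distinct from 0, since it became -0.03 when probe sets with names ending in _x_at or _s_at were left out. The spread within groups was ordinary, with a median SD of 0.141 for the 39 genes and 0.143 for all genes. In bulk RNA such as this, fewer cycling cells and less of a transcript in each cycling cell cannot be told apart.

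**Figure D1:**
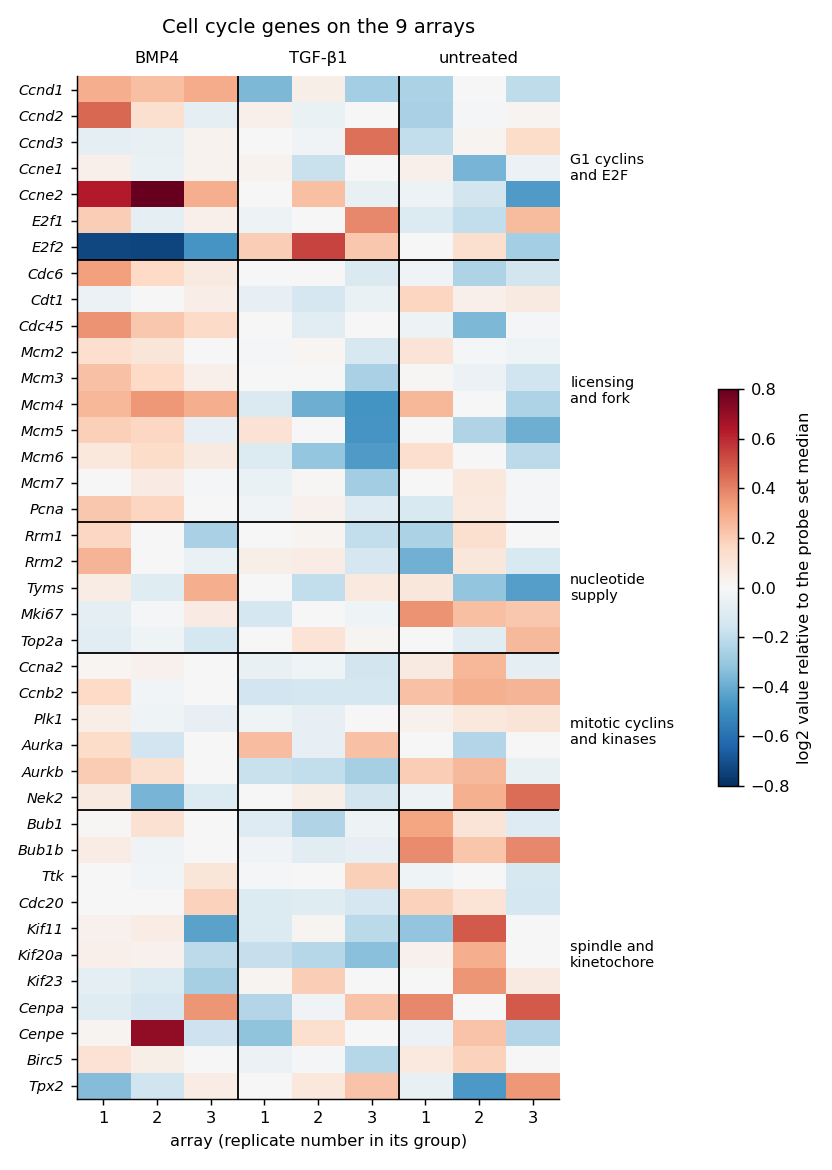
Each row is a cell cycle gene and each column an array, coloured by the log2 value relative to the median of the gene's probe set, with BMP4, TGF-β1 and untreated arrays from left to right and genes grouped by role. The 3 BMP4 arrays are darkest blue at E2f2 and red at Ccne2, and the licensing genes from Cdc6 to Pcna are mostly pale red on BMP4 arrays and blue on the TGF-β1 array numbered 3.

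By phase, the genes of replication and those of mitosis leaned in different directions with BMP4. Of the 17 genes of G1/S and replication, 13 were above 0 in BMP4 minus untreated (median 0.15), 9 were above 0 in TGF-β1 minus untreated (median 0.08) and 3 were above 0 in TGF-β1 minus BMP4 (median -0.18). Of the 17 measured genes of mitosis, 4, 3 and 6 were above 0 in these comparisons, with medians of -0.09, -0.17 and -0.07. Among all genes 50.7%, 51.8% and 51.4% were above 0. No test was made of the groups of genes, and wider lists of other replication and mitosis genes did not show this lean with BMP4 (medians 0.02 and -0.03).

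**Figure D2:**
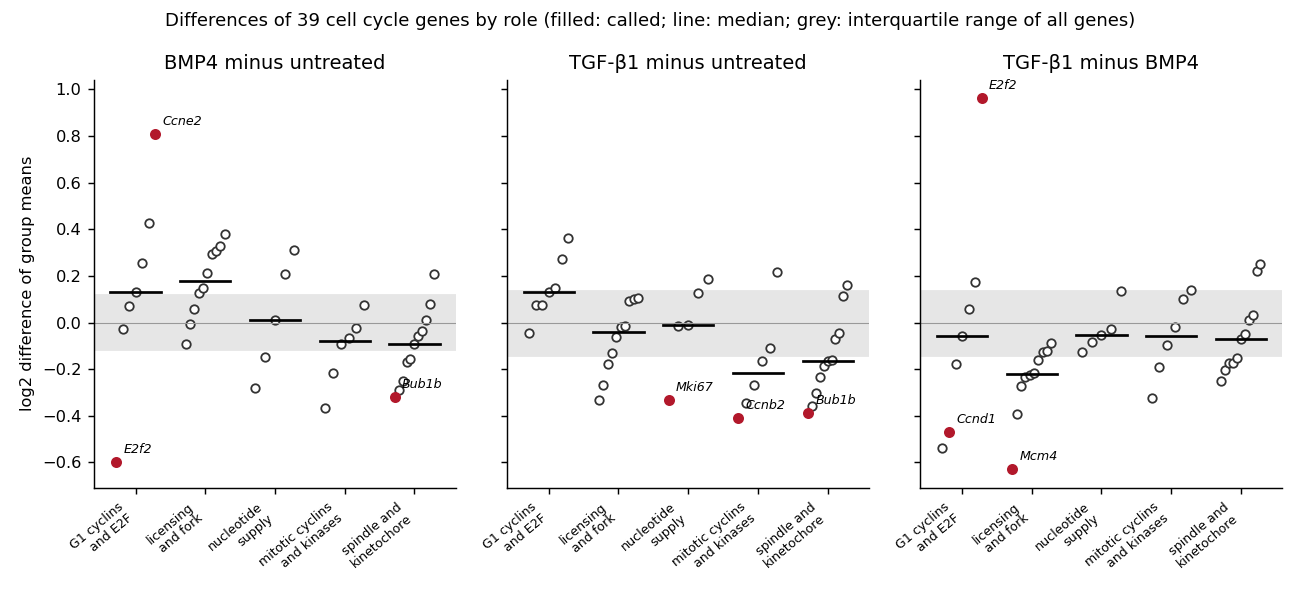
Each point is 1 of the 39 genes, placed by its log2 difference between group means (y axis) and by role (x axis), in 1 panel per comparison. Filled points are called genes, the black line is the median of the role and the grey band is the interquartile range of all genes. The licensing genes all lie below 0 in TGF-β1 minus BMP4, from -0.63 to -0.09.

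Promoter sequences are shown for the called genes that had an entry (E2f2, Ccnb2, Bub1b and Mki67), and for Mcm5 and Mcm6, which were chosen after their motif matches were seen. Ccne2, Ccnd1 and Mcm4, which were also called, had none. RefSeq promoter entries (250 bases before to 50 bases after the start, build GRCm38.p6) were matched by symbol for 32 of the 40 genes, Ccnb1 included. Short motifs of 3 kinds were searched on both strands: E2F sites as TTCCCGC or TTGGCGC, the cell cycle homology region (CHR) as TTTGAA, and the CCAAT box as CCAAT. The reverse complement of TTGGCGC can overlap a CCAAT box, and such matches were counted under both. Of all promoters in the table, 6.81% held an E2F match, 17.9% a CHR match and 37.4% a CCAAT box. An E2F match was present in 6 of 9 licensing and fork promoters and in 1 of 14 mitosis promoters, beside 11.7% of measured genes. The 1 mitosis promoter was that of Ccnb1, which was not measured. A CHR match was present in 2 of 9 licensing promoters and 9 of 14 mitosis promoters, beside 15.7% of measured genes. A CCAAT box was present in 7 of 9 and in 13 of 14, beside 42.0% of measured genes. A match is a string of letters and not a shown binding site.

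The 200 bases before the start are printed 5′ to 3′ on the strand of the gene, with matches in capitals. Mcm5 lies at chr8:75109309-75109508 (plus strand) and Mcm6 at chr1:128359706-128359905 (minus strand), and both show a pair of E2F matches. Of the other helicase genes with an entry, Mcm3 and Mcm7 held E2F matches and Mcm2 held none. E2f2 has an upstream start at chr4:136172074-136172273 and a downstream start at chr4:136180582-136180781, both on the plus strand, with the E2F match of the upstream start at position 41 after the start and so outside the bases shown. Ccnb2 lies at chr9:70421555-70421754 (minus strand), with CCAAT boxes at -87, -54 and -21. Its CHR matches are at -167 and at position 5 after the start, the latter outside the bases shown. Bub1b lies at chr2:118598011-118598210 (plus strand), with its CHR match at position 41 after the start, and Mki67 lies at chr7:135716380-135716579 (minus strand) with all 3 kinds of match.
Mcm5: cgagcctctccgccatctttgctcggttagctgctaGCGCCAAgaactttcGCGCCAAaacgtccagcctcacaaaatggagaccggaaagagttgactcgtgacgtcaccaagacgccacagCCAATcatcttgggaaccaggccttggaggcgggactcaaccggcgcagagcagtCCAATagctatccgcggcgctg
Mcm6: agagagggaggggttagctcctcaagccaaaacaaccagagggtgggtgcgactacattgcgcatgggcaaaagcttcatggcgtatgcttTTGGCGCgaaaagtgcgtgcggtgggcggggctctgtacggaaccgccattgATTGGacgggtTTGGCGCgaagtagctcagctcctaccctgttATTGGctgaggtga
E2f2 upstream start: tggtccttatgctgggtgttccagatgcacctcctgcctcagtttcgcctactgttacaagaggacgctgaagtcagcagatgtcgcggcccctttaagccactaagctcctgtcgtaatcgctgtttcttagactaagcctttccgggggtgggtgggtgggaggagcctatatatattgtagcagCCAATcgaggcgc
E2f2 downstream start: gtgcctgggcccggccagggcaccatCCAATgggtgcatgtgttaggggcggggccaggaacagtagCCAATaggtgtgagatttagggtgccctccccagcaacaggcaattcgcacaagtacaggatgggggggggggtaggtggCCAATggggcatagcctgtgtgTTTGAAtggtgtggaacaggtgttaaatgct
Ccnb2: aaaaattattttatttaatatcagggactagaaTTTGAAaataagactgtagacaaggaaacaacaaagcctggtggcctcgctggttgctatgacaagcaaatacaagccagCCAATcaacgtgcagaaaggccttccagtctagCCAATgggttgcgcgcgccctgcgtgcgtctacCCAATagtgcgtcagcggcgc
Bub1b: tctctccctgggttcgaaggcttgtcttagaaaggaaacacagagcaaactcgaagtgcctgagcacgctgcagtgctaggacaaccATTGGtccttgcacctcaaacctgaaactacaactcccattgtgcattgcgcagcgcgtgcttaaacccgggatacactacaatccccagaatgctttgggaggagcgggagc
Mki67: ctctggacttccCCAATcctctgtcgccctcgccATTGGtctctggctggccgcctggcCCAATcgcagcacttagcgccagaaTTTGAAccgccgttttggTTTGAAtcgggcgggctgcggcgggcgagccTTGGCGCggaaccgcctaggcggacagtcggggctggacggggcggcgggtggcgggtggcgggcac

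The G1 cyclin and E2F genes held the widest differences of the list. BMP4 raised Ccne2, the cyclin E2 gene that drives entry into S phase, by 1.75-fold and lowered E2f2, which encodes an activating E2F, by 1.51-fold. TGF-β1 changed 0 of the 7 genes against untreated cultures by limma's adjusted p, and 1 of the 7 at an unadjusted p under 0.05. Set directly against each other, TGF-β1 cultures had more E2f2 and less Ccnd1, the cyclin D1 gene, than BMP4 cultures.

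Ccne2 stood at 0.63, 0.87 and 0.29 on the BMP4 arrays, at 0.00, 0.24 and -0.06 on the TGF-β1 arrays and at -0.04, -0.15 and -0.45 on the untreated arrays. All BMP4 arrays were above all others. The difference was 0.81 ± 0.16 for BMP4 minus untreated (log2, SE, limma adjusted p = 0.015) and 0.27 ± 0.16 for TGF-β1 minus untreated (adjusted p = 0.39). The BMP4 call was lost without BMP4 replicate 1 (adjusted p = 0.060) or replicate 2 (0.054). In TGF-β1 minus BMP4 it was -0.54 ± 0.16 (adjusted p = 0.074, and 0.0080 with replicate number as a block).

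E2f2 stood at -0.73, -0.74 and -0.47 on the BMP4 arrays, at 0.19, 0.54 and 0.22 on the TGF-β1 arrays and at 0.00, 0.13 and -0.27 on the untreated arrays. It was the gene of the list on which the 2 factors lay furthest apart, with no overlap between any of the groups. The difference in TGF-β1 minus BMP4 was 0.96 ± 0.13 (limma adjusted p = 0.0019), or 1.95-fold, and this call held without any 1 array. In BMP4 minus untreated it was -0.60 ± 0.13 (adjusted p = 0.027), a call lost without BMP4 replicate 1 or 2 or untreated replicate 1 or 2 (0.086 to 0.10). In TGF-β1 minus untreated it was 0.36 ± 0.13 (adjusted p = 0.17). The other E2f2 probe set gave 0.70 ± 0.17 in TGF-β1 minus BMP4 (adjusted p = 0.035), -0.62 ± 0.17 in BMP4 minus untreated (0.065, and 0.030 with replicate number as a block) and 0.07 ± 0.17 in TGF-β1 minus untreated (0.86). Its call in TGF-β1 minus BMP4 was lost without any 1 BMP4 array, TGF-β1 replicate 1 or 2 or untreated replicate 1 (0.053 to 0.12).

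Ccnd1, which couples growth factor signals to the retinoblastoma protein, stood at -0.36, 0.05 and -0.27 on the TGF-β1 arrays, at 0.29, 0.24 and 0.30 on the BMP4 arrays and at -0.25, 0.00 and -0.20 on the untreated arrays. The BMP4 arrays lay close together and above all others. It was lower in TGF-β1 than in BMP4 cultures by 1.39-fold (-0.47 ± 0.11, limma adjusted p = 0.032), a call lost without any 1 BMP4 array or TGF-β1 replicate 1 or 3 (0.083 to 0.12). Against untreated cultures the difference with BMP4 was 0.43 ± 0.11 (adjusted p = 0.057, and 0.025 with replicate number as a block), and averaging the gene's 3 probe sets gave 0.33 (adjusted p = 0.036). By their most variable probe sets, the remaining D-type and E-type cyclin genes, Ccnd2, Ccnd3 and Ccne1, ranged from -0.18 to 0.25 and were not called. All 7 Ccnd2 sets lay above 0 with BMP4 (0.13 to 0.26) and below 0 in TGF-β1 minus BMP4 (-0.31 to -0.07), and 0 were called. The lowest of the latter, 1416123_at, gave -0.31 ± 0.09 (limma adjusted p = 0.070, and 0.025 with replicate number as a block). E2f1, a further activating E2F gene, gave 0.07 ± 0.15 in BMP4 minus untreated (limma adjusted p = 0.88) by its most variable probe set, an _x_at set. In contrast, the set 1431875_a_at gave 0.33 ± 0.08 (adjusted p = 0.034) and the set 1417878_at 0.34 ± 0.09 (0.062, and 0.031 with replicate number as a block). The 1431875_a_at call was kept only without BMP4 replicate 3 or without TGF-β1 replicate 2, and was lost without any other 1 array (0.051 to 0.12).

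**Figure D3:**
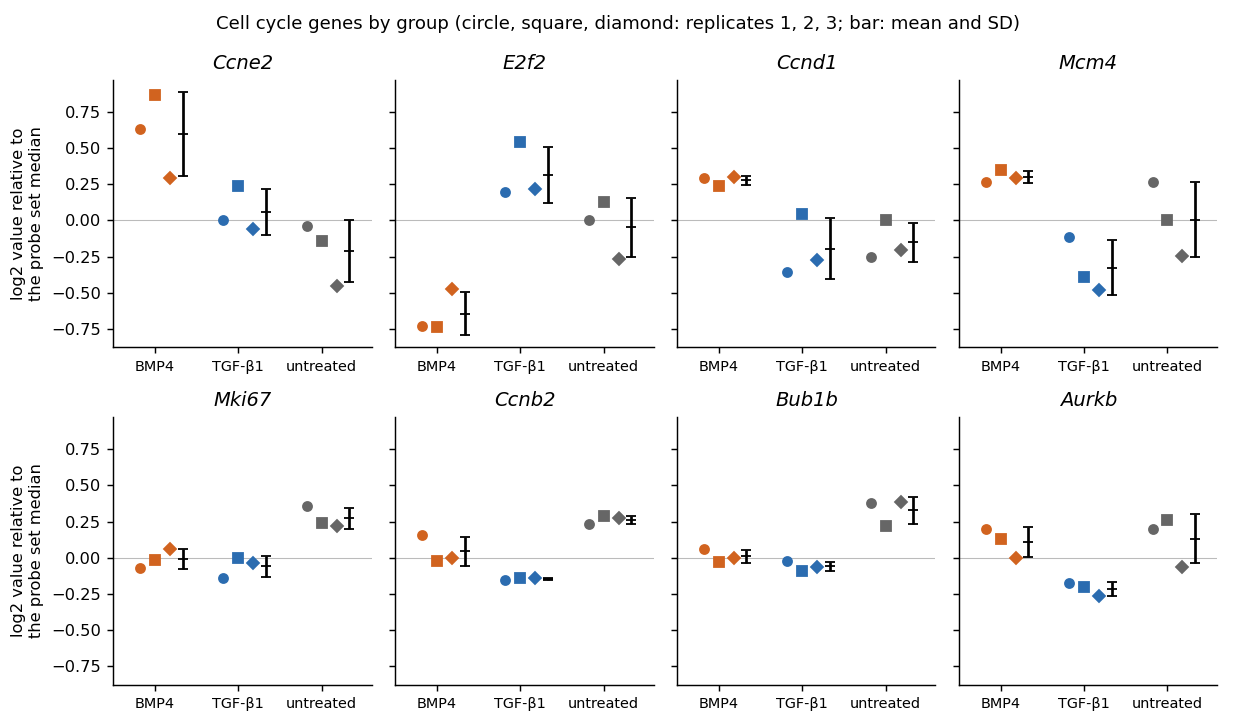
Log2 values relative to the probe set median (y axis) of 8 cell cycle genes on the BMP4, TGF-β1 and untreated arrays (x axis), with the symbol giving the replicate number and the bar the mean and SD of the 3 arrays. Ccne2, E2f2 and Ccnd1 set the BMP4 arrays apart from both other groups, whereas Mki67, Ccnb2 and Bub1b set the untreated arrays above both treated groups.

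The licensing and fork genes load and start the replication machinery. Cdc6 and Cdt1 load the Mcm2 to Mcm7 helicase onto origins, Cdc45 activates it, and Pcna holds DNA polymerase on the template. With BMP4, 8 of the 10 lay above 0 with a median of 0.18, yet 0 were called by limma's adjusted p and 2 passed an unadjusted p under 0.05. With TGF-β1, 3 of 10 lay above 0 with a median of -0.04, 0 were called and 3 passed the unadjusted p. In TGF-β1 minus BMP4 all 10 lay below 0 with a median of -0.22, and 1, Mcm4, was called. For 6 of the 10, all TGF-β1 arrays lay below all BMP4 arrays, beside 16.5% of all genes.

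Mcm4, a helicase subunit, stood at -0.11, -0.39 and -0.48 on the TGF-β1 arrays, at 0.27, 0.35 and 0.29 on the BMP4 arrays and at 0.27, 0.00 and -0.25 on the untreated arrays. The untreated arrays spanned most of the range between the treated groups. Mcm4 was 1.55-fold lower in TGF-β1 than in BMP4 cultures (-0.63 ± 0.13, limma adjusted p = 0.019), and the 2nd probe set, 1416214_at, gave -0.44 ± 0.09 (adjusted p = 0.014). The call was lost without any 1 BMP4 array or TGF-β1 replicate 2 or 3 (0.053 to 0.081), and that of 1416214_at without BMP4 replicate 1 or TGF-β1 replicate 3 (0.056 and 0.058). Against untreated cultures the differences were 0.30 ± 0.13 with BMP4 (adjusted p = 0.30) and -0.33 ± 0.13 with TGF-β1 (0.22).

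Cdc45 showed the largest BMP4 difference of the group. It stood at 0.36, 0.22 and 0.15 on the BMP4 arrays, at 0.00, -0.09 and 0.00 on the TGF-β1 arrays and at -0.04, -0.36 and -0.01 on the untreated arrays. The BMP4 arrays lay above all others, but the difference of 0.38 ± 0.10 missed the threshold (limma adjusted p = 0.068, and 0.033 with replicate number as a block). The other Cdc45 probe set gave 0.07 ± 0.08, and the average of both 0.23 ± 0.07 (adjusted p = 0.094). Cdc6 differed similarly, by 0.33 ± 0.09 (adjusted p = 0.073, 0.032 with replicate number as a block, and 0.037 in a fit of per-gene means, in which its only probe set entered unchanged). Mcm6 gave -0.39 ± 0.11 in TGF-β1 minus BMP4 by an _x_at probe set (adjusted p = 0.065, and 0.020 with replicate number as a block), whereas its other probe sets gave -0.08 ± 0.07 and -0.06 ± 0.08, and the average of all 3 was -0.18 (adjusted p = 0.10). The remaining licensing genes, Cdt1, Mcm2, Mcm3, Mcm5, Mcm7 and Pcna, ranged from -0.09 to 0.31 with BMP4 and from -0.18 to 0.09 with TGF-β1.

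Among the genes of nucleotide supply and general proliferation, TGF-β1 lowered Mki67, which encodes the Ki-67 protein used as a marker of cycling cells. Mki67 stood at -0.07, -0.01 and 0.06 on the BMP4 arrays, at -0.14, 0.00 and -0.04 on the TGF-β1 arrays and at 0.36, 0.24 and 0.22 on the untreated arrays. Both treated groups lay below all untreated arrays. The difference was -0.33 ± 0.08 for TGF-β1 minus untreated (limma adjusted p = 0.042), or 1.26-fold lower. It was -0.28 ± 0.08 for BMP4 minus untreated (0.072, and 0.032 in the fit of per-gene means) and -0.05 ± 0.08 for TGF-β1 minus BMP4 (0.77). The TGF-β1 call was lost without any 1 of the 9 arrays (0.052 to 0.14).

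The enzymes of nucleotide supply were not called. Tyms, thymidylate synthase, stood at 0.06, -0.10 and 0.29 on the BMP4 arrays, at 0.00, -0.20 and 0.08 on the TGF-β1 arrays and at 0.09, -0.32 and -0.44 on the untreated arrays. These groups overlapped, and the difference with BMP4 was 0.31 ± 0.15 (limma adjusted p = 0.33). The 4 Tyms probe sets ran from -0.18 to 0.31 with BMP4. Rrm1 and Rrm2, the subunits of ribonucleotide reductase, and Top2a, the topoisomerase that untangles replicated DNA, ranged from -0.15 to 0.21 with BMP4 and from -0.02 to 0.13 with TGF-β1.

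Among the cyclins and kinases of mitosis, TGF-β1 lowered Ccnb2, the cyclin B2 gene whose product activates Cdk1 at entry into mitosis. Ccnb2 stood at 0.16, -0.02 and 0.00 on the BMP4 arrays, at -0.15, -0.14 and -0.14 on the TGF-β1 arrays and at 0.23, 0.29 and 0.27 on the untreated arrays. No pair of the groups overlapped, and BMP4 lay between. The difference was -0.41 ± 0.07 for TGF-β1 minus untreated (limma adjusted p = 0.014), or 1.33-fold lower, a call lost without TGF-β1 replicate 1 (0.056) or 3 (0.051). It was -0.22 ± 0.07 for BMP4 minus untreated (0.14) and -0.19 ± 0.07 for TGF-β1 minus BMP4 (0.18).

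Aurkb, a kinase of the chromosomal passenger complex that corrects spindle attachment, stood at 0.20, 0.13 and 0.00 on the BMP4 arrays, at -0.18, -0.20 and -0.27 on the TGF-β1 arrays and at 0.20, 0.26 and -0.06 on the untreated arrays. The TGF-β1 arrays lay below all others. TGF-β1 minus untreated was -0.35 ± 0.10 (limma adjusted p = 0.080, and 0.025 with replicate number as a block) and TGF-β1 minus BMP4 was -0.32 ± 0.10 (0.082, and 0.026 with the block). The other Aurkb probe set, 1424128_x_at, was called in both, at -0.34 ± 0.08 (adjusted p = 0.047) against untreated and -0.34 ± 0.08 (0.033) against BMP4 cultures. The first of these calls was lost without any 1 array (0.057 to 0.15), and the second was kept only without TGF-β1 replicate 2, untreated replicate 2 or untreated replicate 3 (0.052 to 0.12 otherwise).

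Nek2, a kinase of centrosome separation, had the largest BMP4 difference in its role. It stood at 0.07, -0.37 and -0.11 on the BMP4 arrays, at 0.00, 0.05 and -0.15 on the TGF-β1 arrays and at -0.04, 0.28 and 0.45 on the untreated arrays. The groups overlapped, the difference with BMP4 was -0.37 ± 0.14 (limma adjusted p = 0.21), and the 4 Nek2 probe sets ran from -0.37 to 0.14. Ccna2, Plk1 and Aurka, which encode cyclin A2 and 2 further mitotic kinases, ranged from -0.09 to 0.08 with BMP4 and from -0.16 to 0.22 with TGF-β1.

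Of the spindle, kinetochore and checkpoint genes, Bub1b (checkpoint protein BubR1) was lower with both factors by its most variable probe set. Bub1b stood at 0.06, -0.03 and 0.00 on the BMP4 arrays, at -0.03, -0.09 and -0.07 on the TGF-β1 arrays and at 0.38, 0.22 and 0.38 on the untreated arrays. All treated arrays lay below all untreated arrays. The difference was -0.32 ± 0.07 with BMP4 (limma adjusted p = 0.035) and -0.39 ± 0.07 with TGF-β1 (0.018), or 1.31-fold lower. These comparisons share the untreated arrays. The BMP4 call was kept only without untreated replicate 2 (0.052 to 0.13 without any other array), and the TGF-β1 call was lost without any 1 TGF-β1 array or untreated replicate 1 (0.055 to 0.071). Of the other Bub1b probe sets, 1416961_at gave -0.24 ± 0.08 with BMP4 and -0.23 ± 0.08 with TGF-β1 (adjusted p = 0.13 and 0.14). The set 1447362_at lay near 0 with BMP4 and at -0.05 ± 0.07 with TGF-β1. The average of all 3 was -0.19 ± 0.06 with BMP4, which was not called (limma adjusted p = 0.089), and -0.22 ± 0.06 with TGF-β1 (0.0496).

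The remaining 10 genes of this role were not called by their most variable probe sets. Kif20a, a kinesin of cell division, gave -0.36 ± 0.10 in TGF-β1 minus untreated (limma adjusted p = 0.090, and 0.030 with replicate number as a block). Tpx2, a spindle assembly factor, gave 0.16 ± 0.18 by its most variable probe set, whereas 1428105_at gave -0.39 ± 0.08 (adjusted p = 0.022) in the same comparison. That call was kept only without a BMP4 array (0.051 to 0.084 without any other). Bub1, Ttk, Cdc20, Kif11, Kif23, Cenpa, Cenpe and Birc5, which encode checkpoint kinases, an activator of the anaphase-promoting complex, kinesins, centromere proteins and survivin, ranged from -0.29 to 0.21 with BMP4 and from -0.30 to 0.11 with TGF-β1.

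The choice of probe set mattered for several of these genes. Of 31 genes with several probe sets, those of 12 lay on both sides of 0 with BMP4, those of 12 with TGF-β1 and those of 16 in TGF-β1 against BMP4. Ccnd3, Cdt1, Rrm1, Tyms, Aurka, Ttk and Kif23 did so in both comparisons with untreated cultures. With BMP4 the probe sets of Mcm6, Aurkb, Nek2, Cdc20 and Cenpe also differed in sign, and with TGF-β1 those of Ccnd2, Mcm3, Mcm5, Rrm2 and Tpx2. In TGF-β1 against BMP4 these were Ccne1, E2f1, Cdt1, Cdc45, Mcm7, Rrm1, Tyms, Top2a, Ccna2, Aurka, Nek2, Bub1b, Ttk, Kif11, Cenpa and Tpx2. Counted by probe set, 4 of 100 were called with BMP4 (2 higher, 2 lower, beside 5.44% of all probe sets), 5 with TGF-β1 (all lower, beside 4.43%) and 7 in TGF-β1 against BMP4 (2 higher, 5 lower, beside 6.91%). Names ending in _x_at (15 of the 100) or _s_at (8 of the 100) mark probe sets that may also match other transcripts. The most variable sets of E2f1, Mcm2, Mcm3, Mcm4, Mcm6, Mcm7, Aurkb, Bub1b and Cdc20 were of this kind, and their values are therefore less certain. The same holds for genes of the other lists named below, Pold1 by an _x_at set and Gadd45b and Cenpn by _s_at sets.

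**Figure D4:**
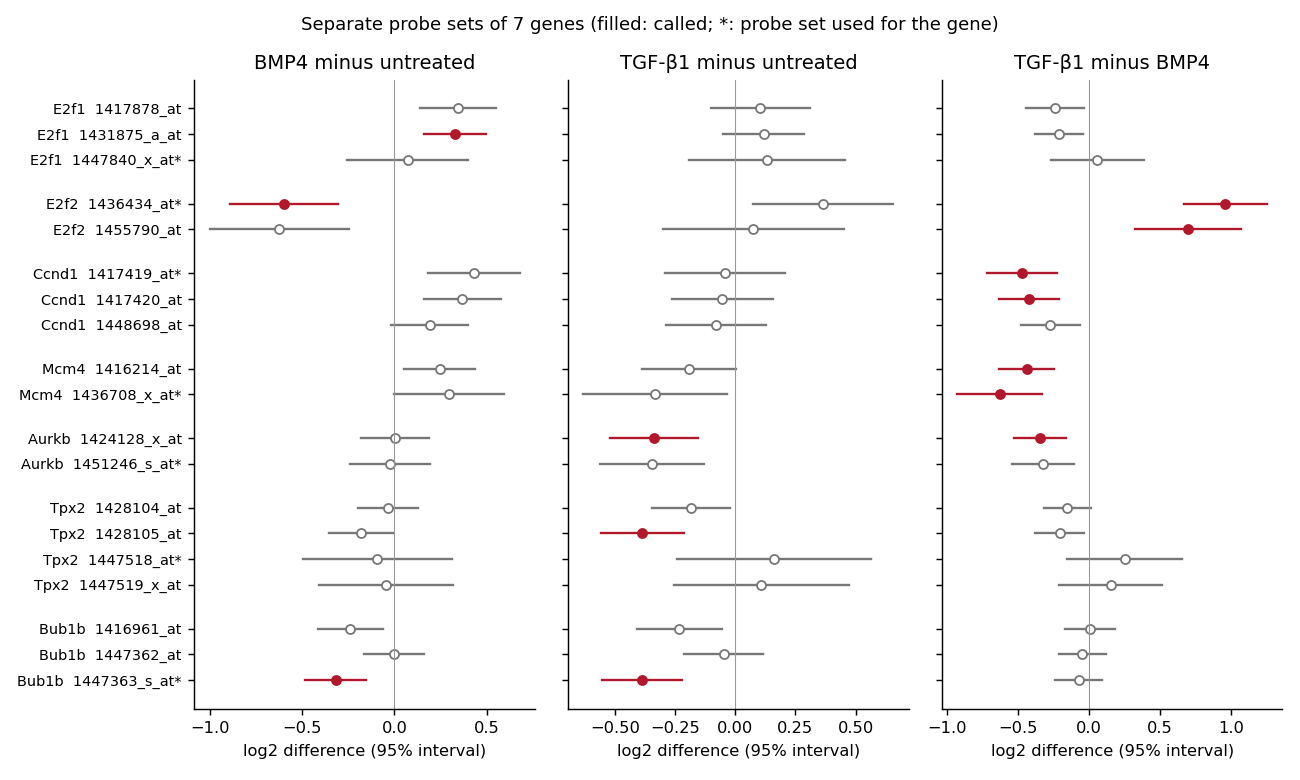
Log2 difference with its 95% interval (x axis) for every probe set of 7 genes (y axis), in 1 panel per comparison, with called probe sets filled and the set used for the gene starred. Both E2f2 sets and both Mcm4 sets are called in TGF-β1 minus BMP4, whereas 1 of 4 Tpx2 sets and 1 of 3 Bub1b sets is called in TGF-β1 minus untreated.

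Genes around this list were read from 5 further lists of 126 genes, 124 of them measured. With BMP4, 3 were higher and 4 lower by limma's adjusted p. With TGF-β1, 2 were higher and 7 lower, and in TGF-β1 against BMP4, 1 was higher and 8 lower. Of all genes, 3.45% were higher and 4.51% lower with BMP4, 2.54% and 4.21% with TGF-β1, and 4.73% and 5.38% in TGF-β1 against BMP4. With BMP4 the other mitosis genes lay on both sides, 22 above and 23 below 0 (median -0.03), as did the other replication genes, 19 above and 16 below 0 (median 0.02), beside 4 of 17 mitosis and 13 of 17 replication genes above 0 in the main list. With TGF-β1, 39 of 45 other mitosis genes were below 0 (median -0.16) and 4 were called, all lower. The other replication genes had 26 of 35 below 0 with TGF-β1 (median -0.17), with 1 called higher and 2 lower.

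**Figure D5:**
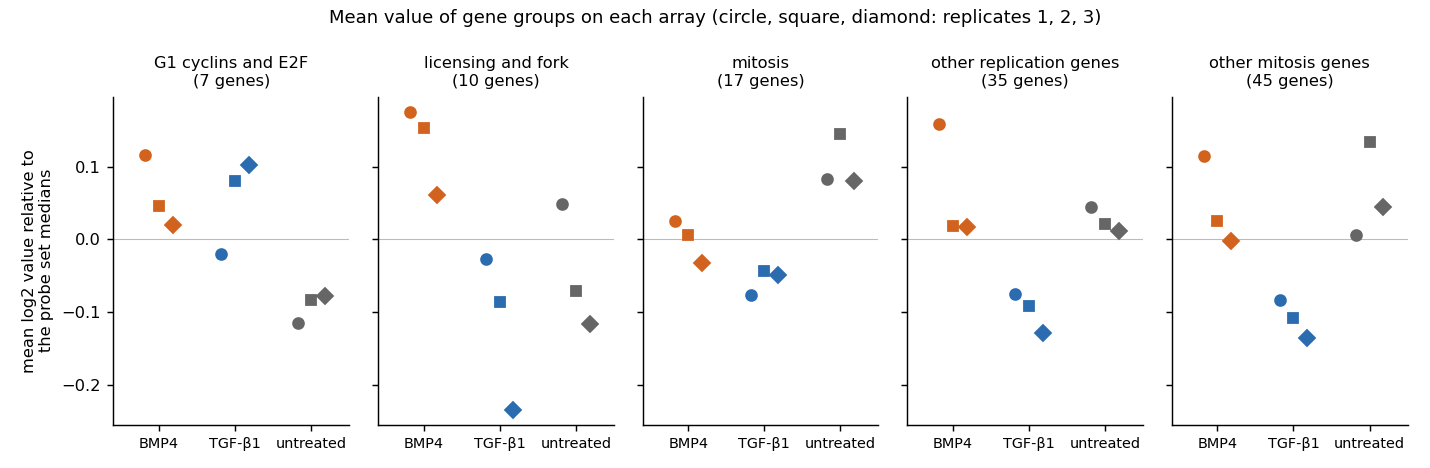
Mean log2 value relative to the probe set medians (y axis) of 5 gene groups on each BMP4, TGF-β1 and untreated array (x axis), with the symbol giving the replicate number. The means of the 45 other mitosis genes run from -0.14 to -0.08 on TGF-β1 arrays, from 0.00 to 0.11 on BMP4 arrays and from 0.01 to 0.13 on untreated arrays.

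Among transcription factors upstream of the cycle, BMP4 raised Myc, which promotes growth and G1 progression. Myc stood at 0.76, 1.05 and 0.80 on the BMP4 arrays, at 0.00, -0.11 and 0.00 on the TGF-β1 arrays and at -0.14, -0.17 and -0.06 on the untreated arrays. The BMP4 arrays stood far above all others, with a difference of 1.00 ± 0.09 (limma adjusted p = 3e-04), against 0.09 ± 0.09 with TGF-β1 (0.65) and -0.91 ± 0.09 in TGF-β1 minus BMP4 (0.00033). Its relative Mycn fell with BMP4, by 0.50 on the log2 scale (adjusted p = 0.0075). E2f5, a repressive E2F gene, was lower in TGF-β1 than in BMP4 cultures (-0.54 ± 0.12, adjusted p = 0.024), a call lost without BMP4 replicate 1 or 2 or TGF-β1 replicate 2 or 3 (0.069 to 0.099). Foxm1 and Mybl2, activators of mitotic genes, were not called, at -0.20 ± 0.09 and 0.21 ± 0.11 with BMP4 and at -0.04 ± 0.09 and 0.21 ± 0.11 with TGF-β1.

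Of the CDK inhibitor genes, Cdkn1a (p21) fell with BMP4. It stood at -0.26, -0.23 and -0.20 on the BMP4 arrays, at 0.00, 0.15 and -0.06 on the TGF-β1 arrays and at 0.16, 0.23 and 0.07 on the untreated arrays. The difference with BMP4 was -0.38 ± 0.08 (limma adjusted p = 0.023), lost without any 1 BMP4 array or untreated replicate 1 or 2 (0.052 to 0.084), and with TGF-β1 it was -0.12 ± 0.08 (0.47). Cdkn2b (p15), a known TGF-β target in epithelial cells, stood at 0.00, -1.16 and 0.00 on the BMP4 arrays, at 0.63, -0.44 and 0.61 on the TGF-β1 arrays and at 0.10, -0.72 and 0.00 on the untreated arrays. In every group the array numbered 2 was far below the others, and within each number the TGF-β1 array was the highest. TGF-β1 minus untreated was 0.47 ± 0.37 (adjusted p = 0.55, and 0.017 with replicate number as a block), and TGF-β1 minus BMP4 was 0.65 ± 0.37 (0.38, and 0.0026 with the block). Cdkn1b (p27) and Cdkn1c (p57) were not called, at -0.19 ± 0.22 and -0.30 ± 0.09 with BMP4 (Cdkn1c adjusted p = 0.079, and 0.028 with the block) and at -0.01 ± 0.22 and -0.19 ± 0.09 with TGF-β1.

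Among CDKs and their regulators, the stress gene Gadd45b rose with both factors, by 1.75 ± 0.13 with BMP4 (limma adjusted p = 0.00012) and 1.29 ± 0.13 with TGF-β1 (0.00077). Its relative Gadd45a fell with both, by 0.49 with BMP4 (0.030) and 0.62 with TGF-β1 (0.015). The BMP4 call of Gadd45a was kept only without TGF-β1 replicate 2 or 3 (0.054 to 0.11 otherwise), and the TGF-β1 call was lost without TGF-β1 replicate 1 (0.054) or untreated replicate 2 (0.050). Btg2, an antiproliferative gene, was higher in TGF-β1 than in BMP4 cultures, by 0.95 ± 0.15 (0.0041). Cdk1, the kinase of mitotic entry, stood between -0.13 and 0.06 in the 3 comparisons and was not called.

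Among the other replication genes, Cdc7, the kinase that fires origins, fell with both factors, by 0.58 with BMP4 (limma adjusted p = 0.0034) and 0.49 with TGF-β1 (0.011). Orc6 rose with BMP4 (0.37 ± 0.08, adjusted p = 0.022) and was lower in TGF-β1 than in BMP4 cultures (-0.35 ± 0.08, 0.023), whereas Orc1, also of the origin recognition complex, rose with TGF-β1 (0.48 ± 0.08, 0.0088). Orc1 gave 0.19 ± 0.08 with BMP4 (0.22) and 0.28 ± 0.08 in TGF-β1 minus BMP4 (0.058, and 0.036 with replicate number as a block). Rfc5, of the clamp loader, fell with TGF-β1 (-0.36 ± 0.07, 0.021), and Rfc3 and Pold1, of the clamp loader and polymerase δ, were lower in TGF-β1 than in BMP4 cultures (-0.41 and -0.36, adjusted p = 0.030 and 0.023).

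Several of these replication calls lay near the threshold with 1 array fewer. Without any 1 array, Orc6 ran from 0.32 to 0.41 with BMP4 and from -0.39 to -0.32 in TGF-β1 minus BMP4, Rfc5 from -0.38 to -0.33, Rfc3 from -0.47 to -0.30 and Pold1 from -0.39 to -0.33. The call of Orc6 was lost without BMP4 replicate 1 or 2 or untreated replicate 2 or 3 against untreated (0.051 to 0.089), and without BMP4 replicate 1 or 2 or any TGF-β1 array against BMP4 (0.052 to 0.093). Rfc5 lost its call without TGF-β1 replicate 1 or 3 or untreated replicate 1 or 2 (0.051 to 0.080). Rfc3 lost it without BMP4 replicate 1 or any TGF-β1 array (0.059 to 0.099), and Pold1 without any BMP4 array or TGF-β1 replicate 2 or 3 (0.050 to 0.086).

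Among the other mitosis genes, TGF-β1 lowered Sgo2a, a protector of centromere cohesion (-0.46 ± 0.08, limma adjusted p = 0.016), the condensin gene Ncapd2 (-0.41 ± 0.07, 0.014) and the centromere gene Cenpn (-0.37 ± 0.08, 0.038). Against BMP4 cultures, TGF-β1 cultures had less Sgo2a (-0.55 ± 0.08, 0.0037) and less Depdc1a (-0.54 ± 0.12, 0.022). With TGF-β1, Sgo2a lost its call without TGF-β1 replicate 3 or untreated replicate 1 or 2 (0.052 to 0.064), Ncapd2 without TGF-β1 replicate 3 or untreated replicate 1 (0.056 and 0.055), and Cenpn kept it only without BMP4 replicate 2 or TGF-β1 replicate 3 (0.057 to 0.11 otherwise). Depdc1a lost its call without BMP4 replicate 1 or 2 or TGF-β1 replicate 2 or 3 (0.070 to 0.089).

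Same-numbered arrays deviated together from their group means in both TGF-β1 comparisons. Correlations across the 100 probe sets of the 39 genes were 0.25 to 0.43 against untreated and 0.34 to 0.42 against BMP4 arrays. For BMP4 and untreated arrays these were -0.33, 0.40 and 0.19, and the sources do not say that a number marks 1 set-up of the experiment. Genes are not independent points. With replicate number as a block, 6 of the 39 were called in BMP4 minus untreated, 4 higher (Ccnd1, Ccne2, Cdc6 and Cdc45) and 2 lower (E2f2 and Bub1b), beside 13.1% of all genes. With replicate number as a block, 5 of the 39 genes of the main list were called in TGF-β1 minus untreated, all lower (Mki67, Ccnb2, Aurkb, Bub1b and Kif20a, beside 13.4% of all genes). In TGF-β1 minus BMP4 6 were called, 1 higher (E2f2) and 5 lower (Ccnd1, Ccne2, Mcm4, Mcm6 and Aurkb, beside 16.8%). The F test of the number called 0 of 39 genes by adjusted p (3.75% of all genes), with 9 of 39 at an unadjusted p under 0.05, beside 4150 of the 18193 genes. On arrays numbered 2 against those numbered 1 and 3, only Cenpe differed, by 0.48 (adjusted p = 0.042, beside 6.43% of all genes).

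Markers of other cell types that a sclerotome dissection could carry were read as well. Of 33 measured markers of muscle, neurons, neural crest, notochord, endothelium, erythroid cells and macrophages, 2 were called with BMP4, 1 with TGF-β1 and 4 in TGF-β1 against BMP4, beside 7.96%, 6.75% and 10.1% of all genes. The mean of 7 skeletal muscle markers ran from -0.32 to -0.07 on TGF-β1 arrays and from 0.05 to 0.11 on untreated arrays, with 0 of 7 called by limma and 4 at an unadjusted p under 0.05. The mean of 4 erythroid markers was 0.46 and 0.76 on untreated replicates 1 and 3, and between -0.28 and 0.09 on all other arrays. Of 8 sclerotome markers, 6 lay below 0 with BMP4 and 4 were called lower, 3 of them by at least 2-fold, beside 4.51% of all genes called lower. With TGF-β1 0 were called, and 2 had an unadjusted p under 0.05 in limma, beside 24.1% of all genes. The part of these markers in the cell cycle values was not tested.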

How the data were processed

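RNA was extracted with Trizol, and 50 ng per sample was amplified, labelled with biotin and hybridized to Affymetrix mouse arrays. The authors deposited log2 values made with RMA (version not given in the sources used here), each probe set centred on its median over the 9 arrays. Signal over background could not be judged, so low signal was not filtered. The experiment was set up on 3 occasions, which the sources do not tie to the replicate numbers, and the p-values measure the spread between these arrays.

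The 64 control probe sets were left out. A linear model of the 3 groups over 9 arrays was fitted with limma 3.58.1 in R 4.3.3 (6 residual and 4.01 prior degrees of freedom, median residual SD 0.129), with two-sided p-values adjusted by Benjamini-Hochberg over 45037 probe sets. The code was tested on simulated data. Errors after ± are SE. The members are a list of symbols that was proposed, as the other gene lists and the tests were, with earlier results of these data known. Array values are given for called genes and for the gene of each role with the largest difference against untreated cultures. Genes whose probe sets differed in sign or call are named, and other lists give up to 3 called genes per comparison. RefSeq held 39 of 39 genes by Entrez identifier. A probe set shared by Tyms and a pseudogene was left out (1). Same-numbered arrays deviated together from their group means in TGF-β1 and untreated cultures (correlations 0.137, 0.494 and 0.277). They did so in TGF-β1 and BMP4 cultures (0.290, 0.497 and 0.377), but not in all BMP4 and untreated pairs (-0.05, 0.50 and 0.24). For BMP4 replicates 1 and 3 the highest correlation with a differently numbered untreated array was 0.11 and 0.36, above that of their own pair. For the 39 genes by their most variable probe sets, blocked values stand beside results of all 3 comparisons where they change a call. For other probe sets and for genes of the other lists they are given only in part. Alternatives were the block, the samples, the scaling, the filter, the moderation, the test and the choice of probe set. Figures were drawn with Python 3.11.15.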

Additional observations from a re-analysis of the deposited data

How the results depend on the processing

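Counts of called genes among the 39 were 3 for BMP4 against untreated, 3 for TGF-β1 against untreated and 3 for TGF-β1 against BMP4 cultures. They became 5, 4 and 5 when all probe sets of a gene were averaged (beside 9.69%, 8.51% and 12% of all genes). With the replicate number as a block they were 6, 5 and 6. For BMP4 and untreated arrays the block called 4 higher and 2 lower. There the pair numbered 1 did not deviate together (correlation -0.05). BMP4 replicate 3 correlated more with a differently numbered untreated array (0.36) than with that of its own number (0.24). The methods' test gave 0, 0 and 0 after Benjamini-Hochberg adjustment (smallest adjusted p 0.346, 0.221 and 0.188), and 7, 6 and 5 genes at an unadjusted p under 0.05. At its own threshold with at least 2-fold it gave 0, 0 and 0. Of all 45037 probe sets it called only 0, 0 and 11 after adjustment, and 433, 253 and 543 at its own threshold. These zeros therefore do not set the 39 genes apart. Without the 3 arrays numbered 2, the count was 1 for BMP4 and 0 for TGF-β1 against untreated, where fewer samples were fitted. The count for TGF-β1 minus untreated was 1 with flat probe sets left out and 1 with only the 2 groups compared, and the cause was not tested. Leaving out 1 array gave 0 to 3, 0 to 3 and 1 to 5 called genes, and 0 to 1 for replicate number. For settings with fewer arrays, fewer groups or flat probe sets left out, the share of all genes called was not computed. Whether calls fell more among the 39 genes than among all genes therefore cannot be read from these counts.

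The median difference of the 39 genes was -0.027 for BMP4 minus untreated without probe sets ending in _x_at or _s_at. For TGF-β1 minus BMP4 it was -0.083 without these and -0.076 with averaged probe sets. Leaving out 1 array gave medians of -0.016 to 0.033, -0.093 to -0.019 and -0.141 to -0.082. The sign turned for uncalled genes only. Cdkn1b with BMP4 ran from -0.377 to 0.027 and with TGF-β1 from -0.208 to 0.203 when 1 array was left out, and with TGF-β1 it was 0.073 with averaged probe sets, 0.037 after quantile normalization and 0.0064 without the arrays numbered 2. Cdkn2b with BMP4 ran from -0.438 to 0.204 and Foxm1 with TGF-β1 from -0.105 to 0.026 when 1 array was left out. Over the named genes, 946 alternative values kept direction and side of the threshold, 271 lost a call, 19 gained one and 9 turned sign. Scaling moved the median of all genes by at most 0.0073 in size.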
